A study of Mus musculus with 12 samples.

Results

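The genes described here are 35 mouse genes of the response to unfolded protein and to amino-acid shortage, chosen by name from a given list, out of 20432 genes in the deposited expression table. They were kept in 2 arms by known role. The ER chaperone arm holds 15 genes for folding, disulfide formation and disposal of protein in the endoplasmic reticulum (ER), and the ATF4 arm holds 20 genes that are regulators, enzymes and transporters of the amino-acid response. All 35 genes passed the filter on low values, which left 12734 genes to test. RNA was measured in 12 poly(A)-selected libraries of cultured mouse pancreatic ductal adenocarcinoma cells, in 6 lines named 52205, 52419, 52424, 53105, 53369 and 53371, with 1 library for each line and condition. Cre cells, labelled as a JAK1 knockout, were made from each line with a pBabe-Cre-puro retrovirus and were selected with puromycin at 2, 4 and 7 µg/ml. Parental cells of the same lines, labelled wild type, were set against them. JAK1 is a kinase that relays signals from cytokine receptors to STAT transcription factors. Cells that carried a vector without Cre were not analysed here, so loss of JAK1 cannot be told apart from infection, drug selection and added time in culture. The labels do not say whether a Cre culture is 1 clone.

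When misfolded protein builds up in the ER, sensors in its membrane start the unfolded-protein response. IRE1 splices the mRNA of the transcription factor XBP1, ATF6 is cut to release a transcription factor, and PERK phosphorylates the translation factor eIF2α. XBP1 and ATF6 raise chaperones and disposal factors. Phosphorylated eIF2α slows protein synthesis while translation of ATF4 goes up, and ATF4 turns on genes for amino-acid synthesis and uptake. Other kinases phosphorylate eIF2α when amino acids or haem are short, so the ATF4 arm can move without stress in the ER. Exocrine cells of the pancreas depend on this system because they secrete large amounts of protein. ATF4 and spliced XBP1 are controlled largely at the level of translation and splicing, which a gene's total mRNA does not show.

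The sequences below show the motif by which each arm is best known. The ER stress response element is CCAAT, 9 bases of any kind and CCACG, and it was searched on both strands of RefSeq promoters of GRCm38.p6, each 300 bases long from 250 before to 50 after an annotated start of the gene, of which some genes have more than 1. Of the ER arm 13 members had a window in the table, and 7 of the 13 (53.8%) held the element, against 0 of 19 windows of the ATF4 arm. The element stood in 39 of 32851 promoters (0.119%), and in 15 of 12514 windows of genes tested (0.120%). The stretches below run 5′ to 3′ on the gene's strand, with the element in capitals. They lie at Calr chr8:84847060-84847108 (minus strand), Canx chr11:50325785-50325833 (minus strand), Creld2 chr15:88819505-88819553 (plus strand), Dnajc3 chr14:118937812-118937860 (plus strand), Hsp90b1 chr10:86705522-86705671 (minus strand), Hspa5 chr2:34772010-34772058 (plus strand) and Pdia6 chr12:17266476-17266524 (plus strand), and Hsp90b1 holds 2 matches.
Calr: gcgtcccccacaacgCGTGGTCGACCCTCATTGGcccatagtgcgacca
Canx: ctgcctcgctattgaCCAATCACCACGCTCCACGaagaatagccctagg
Creld2: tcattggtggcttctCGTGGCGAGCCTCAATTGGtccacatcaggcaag
Dnajc3: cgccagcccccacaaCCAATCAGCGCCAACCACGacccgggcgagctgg
Hsp90b1: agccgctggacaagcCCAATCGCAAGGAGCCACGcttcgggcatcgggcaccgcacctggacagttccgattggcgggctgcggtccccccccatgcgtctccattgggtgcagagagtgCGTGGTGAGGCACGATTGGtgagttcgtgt
Hspa5: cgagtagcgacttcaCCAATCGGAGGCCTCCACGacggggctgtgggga
Pdia6: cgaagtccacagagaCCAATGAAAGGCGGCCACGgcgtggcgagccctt
The related element ERSE-II, ATTGG, any base and CCACG, was found in the promoter of Herpud1, which is the 1 match among 13 ER windows, and in 0.0365% of all promoters. It lies at Herpud1 chr8:94386362-94386402 (plus strand) and is in capitals here.
Herpud1: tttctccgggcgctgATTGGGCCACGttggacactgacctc

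The site bound by ATF4 with C/EBP partners was searched as TGATGNAA on both strands. It stood in 7 of 19 ATF4 windows, which belong to 7 of 17 genes, and in 1 of 13 ER windows, that of Herpud1. Of all promoters 3.97% held it, and of the windows of genes tested 2.23%. In Trib3 the match lay past the start of transcription and is not printed. Vldlr has 2 windows, and its match is in the downstream one (chr19:27216770-27217069), which lies inside the gene and belongs to a later start. The other stretches, with the match in capitals, lie at Asns chr6:7693210-7693247 (minus strand), Atf3 chr1:191183421-191183458 (minus strand), Chac1 chr2:119351034-119351071 (plus strand), Nupr1 chr7:126625558-126625595 (minus strand), Pck2 chr14:55540148-55540185 (plus strand), Vldlr chr19:27216805-27216842 (plus strand) and Herpud1 chr8:94386302-94386339 (plus strand).
Asns: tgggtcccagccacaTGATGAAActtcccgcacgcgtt
Atf3: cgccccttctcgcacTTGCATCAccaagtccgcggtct
Chac1: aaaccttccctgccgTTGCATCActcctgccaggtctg
Nupr1: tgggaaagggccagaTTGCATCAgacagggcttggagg
Pck2: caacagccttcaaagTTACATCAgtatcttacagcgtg
Vldlr: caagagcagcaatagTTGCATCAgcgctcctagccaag
Herpud1: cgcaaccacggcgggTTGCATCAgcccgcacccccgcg
The core of the XBP1 element, TGACGTGG, was in 0 windows of either arm and in 0.676% of all promoters. Manf, Hyou1, Slc7a5, Cth and Aldh1l2 were not among the promoters used. The motifs were chosen because they are known for these arms, so their shares in the arms are a description and no test. A match describes these letters and is no evidence of binding.

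The libraries held 11.5 to 18.0 M reads in genes (M, 1e+06 reads), and 1 read was worth 0.0569 to 0.0896 normalised counts per 1e+06 reads (CPM). Jak1 was at 168 ± 44.2 CPM in Cre cells and at 170 ± 26.7 CPM in parental cells (SD, n = 6 each), and this total does not check the deletion, because the deleted exons are not named in the labels. Ductal markers were uneven between lines. Cdh1, which encodes E-cadherin, was at 36.4 CPM or more in Cre cells and at 17.5 CPM or more in parental cells of 5 lines, but at 0.61 CPM in Cre and 0.37 CPM in parental cells of line 52419. In that line Krt8 was also near 0, at 0.54 CPM in Cre and 0.82 CPM in parental cells, so the labelled ductal type lacks some of its markers there. Krt19 in that line was at 19.9 CPM in Cre and 15.5 CPM in parental cells, against 278 CPM or more in the other lines. Krt18 was at 188 CPM or more and Sox9 at 17.9 CPM or more in every library. Epcam was at 0.50 CPM in Cre and 0.61 CPM in parental cells of line 53369. Fibroblast and stellate markers summed to between 8.11 and 1266 CPM in Cre libraries and between 9.69 and 2177 CPM in parental libraries. Leukocyte, endothelial, and acinar and endocrine markers summed to at most 10.0, 5.32 and 18.5 CPM in Cre libraries and at most 26.4, 6.85 and 12.9 CPM in parental libraries. In these bulk samples fewer cells of a type and less RNA per cell cannot be told apart.

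Over all lines the ER arm had a median change near 0 and the ATF4 arm one below 0. In lines 52424 and 53371 the ATF4 median was about 2-fold or more lower in Cre cells, while the ER median was at 0.093 and -0.022. In lines 52205 and 52419 the ATF4 median was above 0, at 0.14 and 0.44. The median log2 change over the 15 ER genes was 0.0042, with 7 estimates below 0 and 8 above. Over the 20 ATF4 genes it was -0.40, with 18 below 0 and 2 above. Over all 12734 genes tested the median was -0.00024, with 6377 below 0. None of the 35 genes passed limma at a Benjamini-Hochberg adjusted p under 0.05, where 0.0236% of all genes did. At an unadjusted p under 0.05 limma found 1 ER gene lower and 2 higher, and 6 ATF4 genes lower and 0 higher, beside 8.18% of all genes lower and 6.96% higher. edgeR called 0 of the 35 genes (0.0393% of all genes) and DESeq2 called 1, Aldh1l2 (2.12% of all genes). The arm's median was -0.19 without line 52424 and -0.26 without line 53371. The count of ATF4 genes lower at an unadjusted p under 0.05 was 11 without line 52419, 7 without 52205, 4 without 53369, 3 without 53105, 2 without 52424 and 1 without 53371. The shares of all genes in these refits are not given here, so these counts have no background to be read against.

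**Figure D1:**
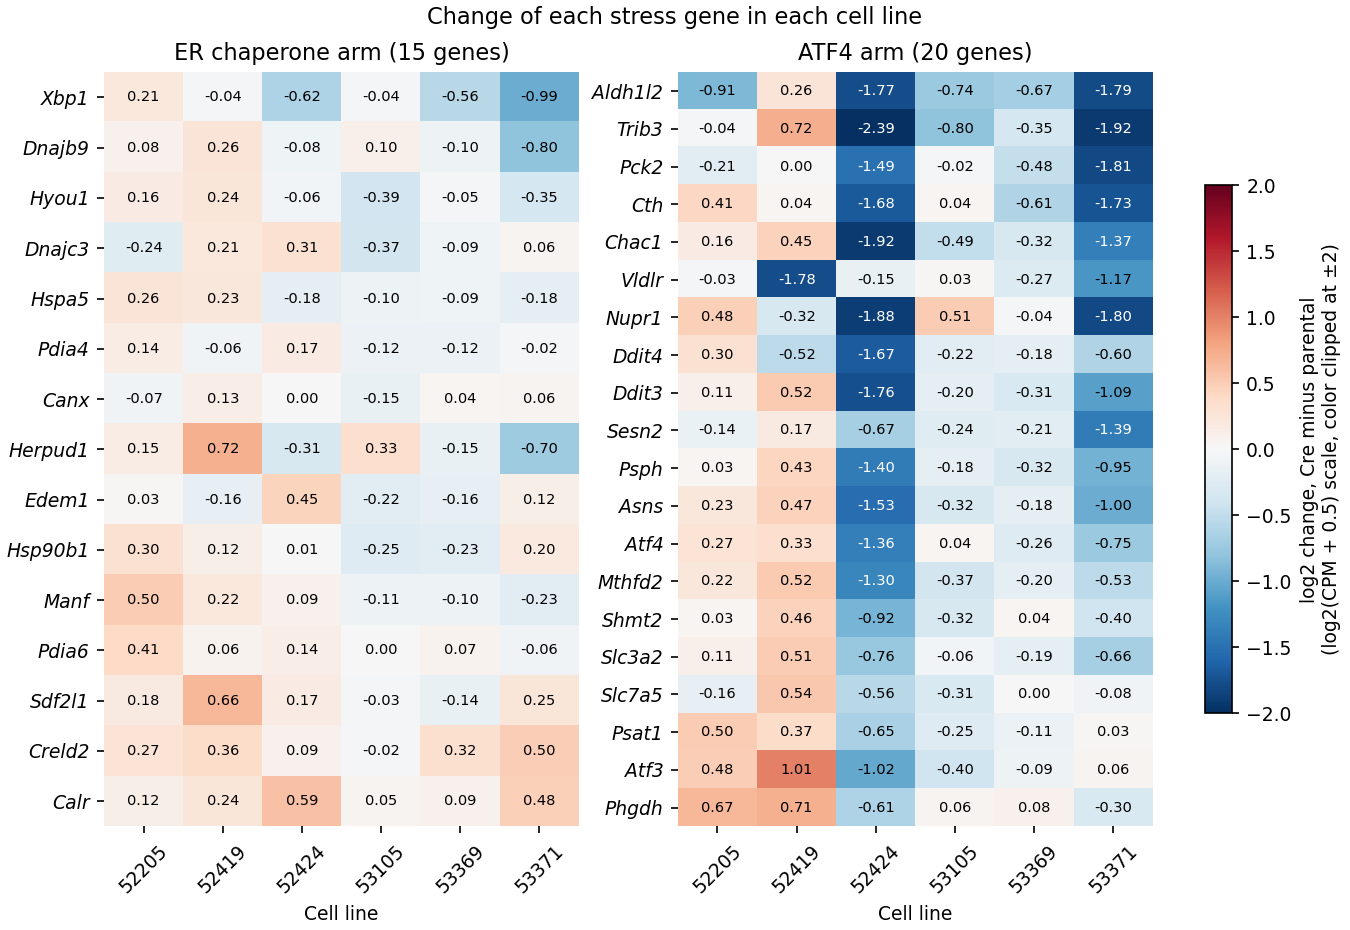
Log2 change of each of the 35 genes (rows, by arm) in each of the 6 lines (columns), Cre minus parental, as a colour scale on log2(CPM + 0.5). The ATF4 arm is lower in 20 of 20 genes in line 52424 and in 18 of 20 in line 53371, and higher in 16 of 20 in line 52419.

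In the ER arm the transcription factor Xbp1 (chromosome 11, 5520641 to 5525993, GRCm38) had the lowest estimate. Its lowest, median and highest levels were 51.6, 73.6 and 137 CPM in Cre cells, against 53.1, 101 and 166 CPM in parental cells. The groups overlapped, with line 52419 low in both, and Xbp1 was lower in 5 of 6 pairs. Cre minus parental, the log2 change was -0.34 (SE 0.15), and the limma adjusted p was 0.322. It was 1.98-fold lower in line 53371 and 1.53-fold lower in line 52424, on the log2(value + 0.5) scale that all fold changes here use, and without line 53371 the change was -0.21.

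Hspa5, which encodes BiP, the main Hsp70 chaperone of the ER and a standard readout of the response, did not differ between the groups beyond the spread over pairs. It was at 917, 1165 and 1608 CPM (lowest, median, highest) in Cre cells and at 975, 1282 and 1369 CPM in parental cells. Both Cre and parental cells of line 53369 were the lowest of their group. The log2 change was -0.01 (SE 0.10), the 95% confidence interval ran between -0.22 and 0.20, and the limma adjusted p was 0.971. The estimate was above 0 without line 52424, 53105, 53369 or 53371. The Hspa5 gene (chromosome 2, 34772090 to 34776529) overlaps Rabepk, and no step that marks strand is named in the protocol, so reads in the overlap cannot be told apart.

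Calr, the calcium-binding lectin chaperone calreticulin (chromosome 8, 84842088 to 84846931), was the ER gene with the highest estimate. It was at 535, 612 and 677 CPM (lowest, median, highest) in Cre cells and at 444, 518 and 584 CPM in parental cells. The groups overlapped, but each Cre library lay above its own parental library, in 6 of 6 pairs, as did 4.11% of all genes. For Calr the log2 change was 0.26 (SE 0.09), the limma adjusted p was 0.278 and the exact sign-flip permutation p was 0.0313, the smallest that 6 pairs allow. Calr was 1.504-fold higher in line 52424 and 1.39-fold in line 53371, which are the lines with the lowest ATF4 medians below.

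Creld2, a disulfide isomerase that is retained in the ER or secreted, had the lowest p of the arm. Its levels were 53.0, 62.0 and 80.04 CPM (lowest, median, highest) in Cre cells and 41.2, 53.8 and 66.4 CPM in parental cells. The groups overlapped, line 52205 was the highest of both and line 52419 the lowest of both. Creld2 was higher in 5 of 6 pairs, with a log2 change of 0.25 (SE 0.09) and a limma adjusted p of 0.262. The stress-induced secreted factor Manf was at 0.06 (adjusted p = 0.786).

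The remaining genes of the arm had mean changes closer to 0. The co-chaperone Sdf2l1 was at 17.8, 36.3 and 49.4 CPM (lowest, median, highest) in Cre cells and at 11.9, 31.3 and 50.4 CPM in parental cells. Pdia6, a disulfide isomerase, was at 366, 423 and 548 CPM in Cre cells and at 350, 410 and 422 CPM in parental cells. Hyou1, an Hsp110-type partner of BiP, was at 184, 259 and 317 CPM in Cre cells and at 230, 251.3 and 341 CPM in parental cells. The groups overlapped for these 3 genes, with line 52419 the lowest parental library of Sdf2l1 and line 53105 the highest parental library of Hyou1. Sdf2l1 had a log2 change of 0.18 (SE 0.11, limma adjusted p = 0.462), Pdia6 one of 0.10 (SE 0.08, adjusted p = 0.559) and its relative Pdia4 one of -0.00 (SE 0.07, adjusted p = 0.993). Hyou1 was at -0.07 (SE 0.10, limma adjusted p = 0.744). The ER Hsp90 gene Hsp90b1 was at 0.03, the lectin chaperone gene Canx at -0.00, and the J-domain co-chaperone genes Dnajb9 and Dnajc3 at -0.09 and -0.02. For disposal of ER protein, Herpud1, which helps assemble the ubiquitin ligase complex, was at 0.00 and Edem1, which marks misfolded glycoproteins, at 0.01. For Herpud1 the lines went opposite ways, with Cre cells 1.64-fold higher in line 52419 and 1.63-fold lower in line 53371. Dnajb9 was 1.74-fold lower in line 53371. Without line 52419 Sdf2l1 was at 0.086, without 52205 Pdia6 was at 0.041, and Hyou1 lay between -0.14 and -0.01 over the pairs left out. Pdia6 overlaps Atp6v1c2 in the annotation. None of the 15 genes was 2-fold lower or higher in any line.

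**Figure D2:**
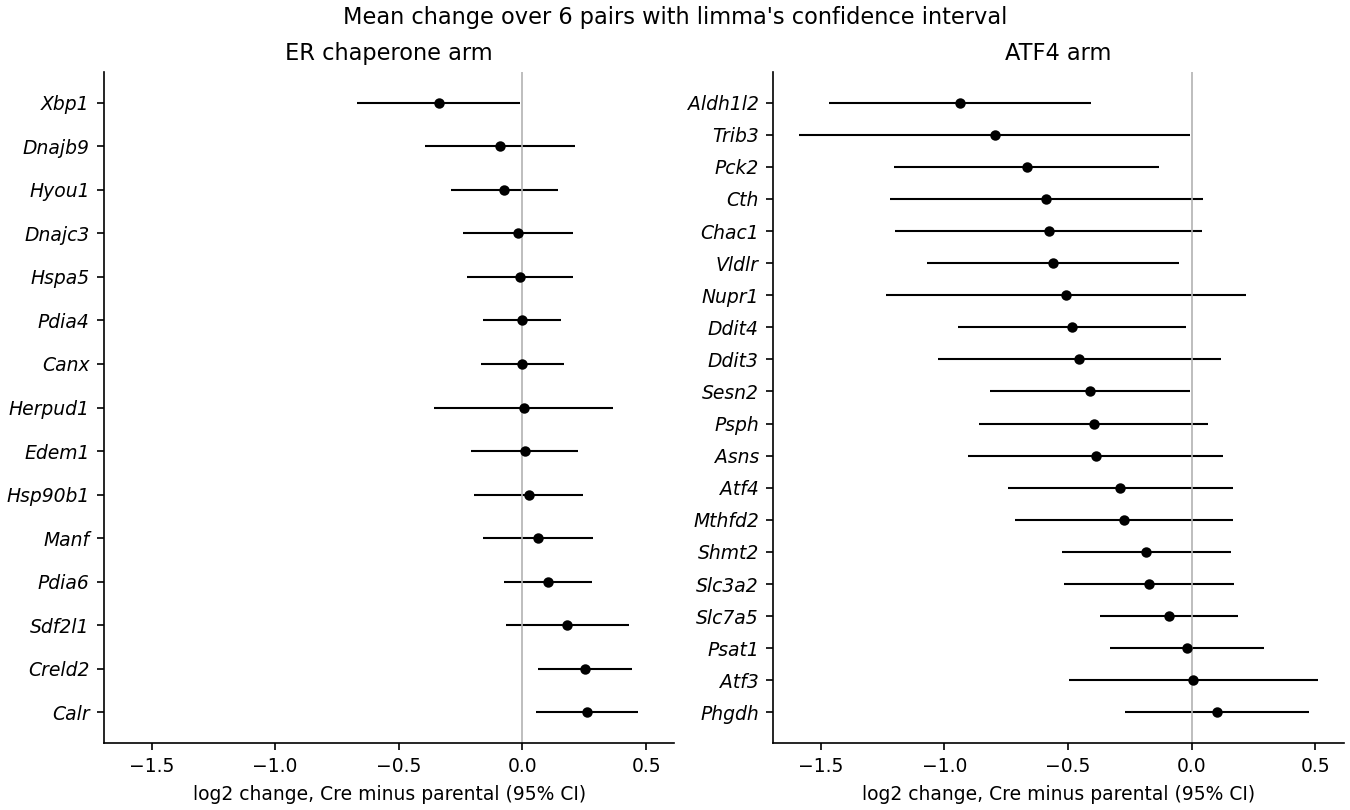
Log2 change, Cre minus parental, of the 35 genes by arm (points, mean of 6 pairs), with 95% confidence intervals from limma (bars). Aldh1l2 at -0.94 and Calr at 0.26 are the ends of the range.

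Among the regulators of the ATF4 arm, Atf4 itself (chromosome 15, 80255184 to 80257545) followed the split between lines. It was at 142, 218 and 477 CPM (lowest, median, highest) in Cre cells and at 137, 356 and 396 CPM in parental cells. The groups overlapped throughout, with line 53105 the lowest in each and line 52205 the highest in each. Atf4 had a log2 change of -0.29 (SE 0.20, limma adjusted p = 0.518), lower in 3 of 6 pairs, and Atf4 was 2.57-fold lower in line 52424 and 1.68-fold lower in line 53371. Without line 52424 the change was -0.073.

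Ddit3, which encodes CHOP, a transcription factor of prolonged ER stress, was at 22.1, 38.8 and 58.4 CPM (lowest, median, highest) in Cre cells and at 24.9, 53.0 and 76.0 CPM in parental cells. The groups overlapped, and parental 52419 was the lowest parental library while Cre 52424 was the lowest Cre library. Ddit3 had a log2 change of -0.45 (SE 0.26, limma adjusted p = 0.424), with Cre cells 3.38-fold lower in line 52424 and 2.13-fold lower in line 53371, and it was -0.19 without line 52424. Ddit3 overlaps the ends of Mbd6 and Mars1, and the part of those reads was not tested.

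Trib3, a pseudokinase that ATF4 and CHOP induce and that dampens AKT signalling (chromosome 2, 152337425 to 152344060), had the widest range of log2 change over lines among the 35 genes. Its levels were 17.6, 46.9 and 137 CPM (lowest, median, highest) in Cre cells and 30.9, 103 and 148 CPM in parental cells. The groups overlapped, since line 52205 was high in both and line 53105 low in both. Trib3 was lower in 5 of 6 pairs, with a log2 change of -0.80 (SE 0.35) and a limma adjusted p of 0.328. It was 5.26-fold lower in line 52424 and 3.78-fold lower in line 53371, but 1.65-fold higher in line 52419, and without line 52424 the change was -0.48. Of the other regulators, the stress-induced factor Atf3 was at 0.01, with Cre cells 2.03-fold lower in line 52424 and 2.02-fold higher in line 52419, and the chromatin protein Nupr1 at -0.51 (SE 0.33, limma adjusted p = 0.476).

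Aldh1l2, the mitochondrial enzyme that oxidises formyl-tetrahydrofolate (chromosome 10, 83487447 to 83534146), had the lowest estimate and the lowest p of the 35 genes. It was at 13.5, 46.1 and 159 CPM (lowest, median, highest) in Cre cells and at 39.4, 81.5 and 254 CPM in parental cells. Line 53369 was the highest in both groups, so the groups overlapped, while Cre cells were lower in 5 of 6 pairs and higher in line 52419. Its log2 change was -0.94 (SE 0.24, 95% confidence interval -1.47 to -0.41), with adjusted p = 0.195 by limma, 0.216 by edgeR and 0.00683 by DESeq2. Over the pairs left out in turn, the change ran between -1.18 and -0.77.

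The other folate and serine enzymes had their lowest changes in line 52424. Of the mitochondrial one-carbon pathway, Mthfd2 was at -0.28 (SE 0.20, limma adjusted p = 0.523) and Shmt2 at -0.18 (SE 0.15, adjusted p = 0.583). Of the 3 enzymes that make serine from a glycolytic intermediate, Psph was at -0.40 (SE 0.21), Psat1 at -0.02 (SE 0.14) and Phgdh at 0.10 (SE 0.17), with limma adjusted p between 0.389 and 0.966. Phgdh and Psat1 had smaller changes in line 53371 (-0.30 and 0.03) than in line 52424 (-0.61 and -0.65). Psph (73.4 CPM in Cre and 99.6 CPM in parental cells on average) shares 88 bases with Cct6a, whose average was 433 CPM, and the part of those reads in the Psph values was not tested. Shmt2 shares 32 bases with Ndufa4l2, which was at 0.0718 CPM on average.

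Asparagine synthetase (Asns) and cystathionine gamma-lyase (Cth), which makes cysteine, were lower in Cre cells of the same 2 lines. Asns was at 77.5, 147 and 312 CPM (lowest, median, highest) in Cre cells and at 96.7, 262 and 333 CPM in parental cells. Cth was at 11.8, 25.1 and 112 CPM in Cre cells and at 11.4, 67.5 and 171 CPM in parental cells. The groups overlapped for both genes. Asns had a log2 change of -0.39 (SE 0.23, limma adjusted p = 0.448) and Cth one of -0.59 (SE 0.28, adjusted p = 0.36). In line 53371 Cth was 3.31-fold lower and Asns 1.996-fold lower, and in line 52424 they were 3.21-fold and 2.88-fold lower. Smaller falls were seen elsewhere, 1.52-fold for Cth in line 53369 and 1.25-fold for Asns in line 53105. Both genes had estimates above 0 in lines 52205 and 52419.

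The amino-acid transporter subunits had estimates nearer to 0. Slc3a2, the heavy chain shared by several exchangers, was at -0.17 (SE 0.15, limma adjusted p = 0.606) and Slc7a5, the leucine-carrying light chain, at -0.09 (SE 0.12, adjusted p = 0.746). Both were lower in 4 of 6 pairs.

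Pck2, the mitochondrial enzyme that makes phosphoenolpyruvate (chromosome 14, 55540263 to 55550020), was the only member lower in 6 of 6 pairs, beside 4.56% of all genes. Its levels were 70.3, 101 and 213 CPM (lowest, median, highest) in Cre cells and 97.9, 202 and 360 CPM in parental cells. The groups overlapped, and Cre and parental cells were nearly level in lines 52419 and 53105. The log2 change was -0.67 (SE 0.24), the limma adjusted p was 0.283 and the exact sign-flip permutation p was 0.0313. It was 3.51-fold lower in line 53371 and 2.81-fold lower in line 52424, and the change was -0.44 without line 53371.

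Vldlr, a lipoprotein receptor that ATF4 induces (chromosome 19, 27216480 to 27254231), differed in its order of lines. It was at 10.9, 67.1 and 134 CPM (lowest, median, highest) in Cre cells and at 38.7, 89.6 and 157 CPM in parental cells. The groups overlapped, and Cre 52419 lay far under all other libraries. The log2 change was -0.56 (SE 0.23, limma adjusted p = 0.303), with Cre cells 3.44-fold lower in line 52419, 2.25-fold lower in line 53371 and 1.11-fold lower in line 52424. Without line 52419 it was -0.32.

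Sesn2 and Ddit4 both encode inhibitors of the growth kinase mTORC1. Sesn2 (chromosome 4, 132492804 to 132510456) was at 15.1, 21.3 and 38.3 CPM (lowest, median, highest) in Cre cells and at 13.4, 35.9 and 45.6 CPM in parental cells. Ddit4 (chromosome 10, 59949675 to 59951770) was at 35.3, 83.7 and 143 CPM in Cre cells and at 50.9, 115 and 241 CPM in parental cells. Both pairs of groups overlapped, with line 52419 the lowest throughout. The log2 changes were -0.41 (SE 0.18, limma adjusted p = 0.325) for Sesn2 and -0.48 (SE 0.21, adjusted p = 0.317) for Ddit4, each lower in 5 of 6 pairs. Sesn2 was 2.62-fold lower in line 53371 and at -0.22 without that line, and Ddit4 was 3.18-fold lower in line 52424 and at -0.25 without that line. Chac1, which degrades glutathione, was at -0.58 (SE 0.28, limma adjusted p = 0.358).

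**Figure D3:**
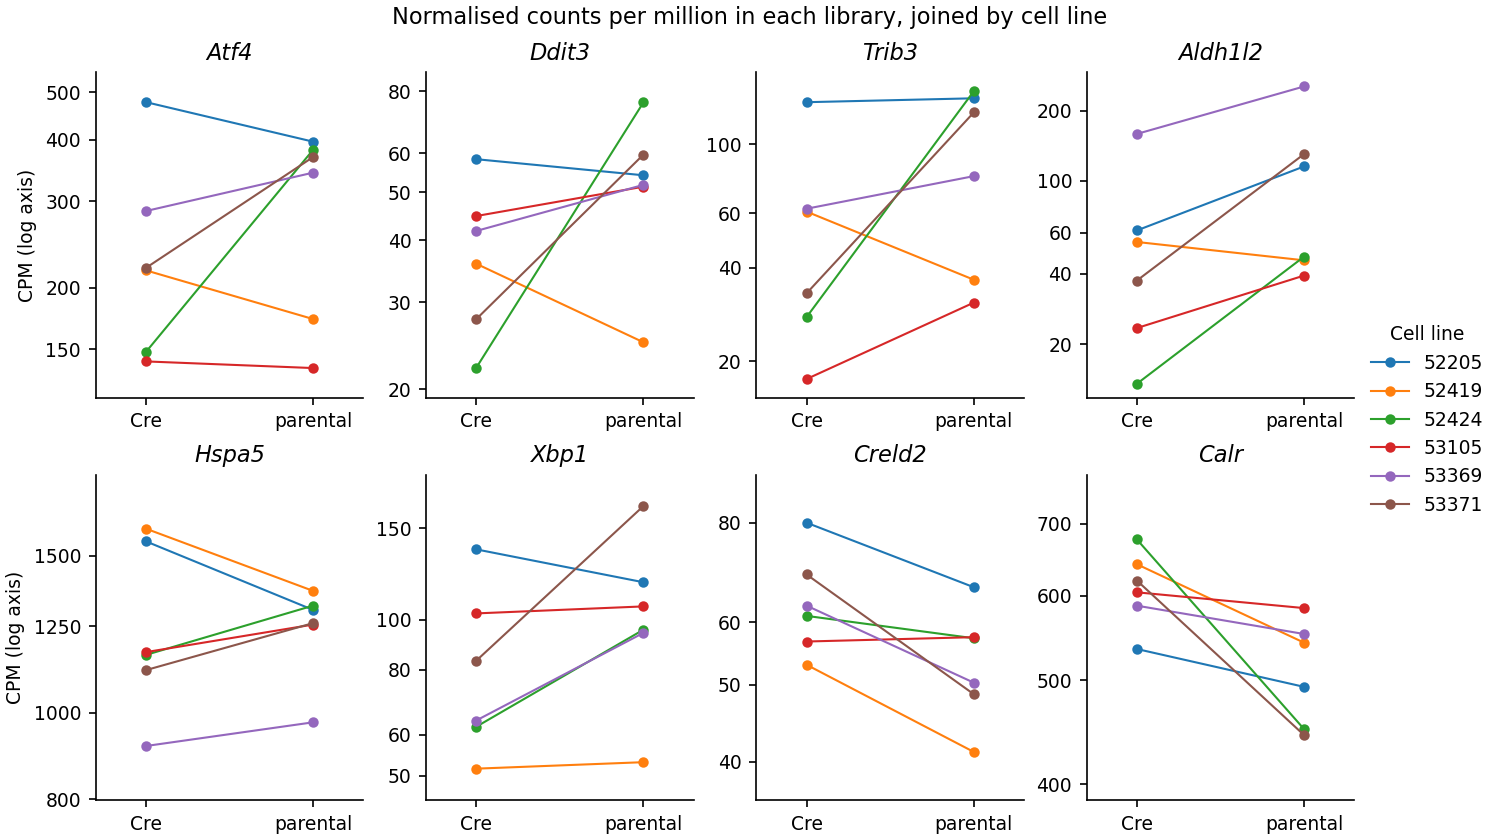
Normalised CPM (log axis) of 8 of the 35 genes in each library, Cre on the left and parental on the right, with a line joining the libraries of 1 cell line. Atf4, Ddit3, Trib3 and Aldh1l2 are lower in Cre than in parental cells in lines 52424 and 53371, while Calr is higher in Cre cells in 6 of 6 pairs.

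With 1 library for each line and condition, the difference within a line has no test, and it is given as counts past 2-fold. In line 52424 the ATF4 arm had a median log2 change of -1.38, 2.61-fold lower in Cre cells. All 20 genes were lower, beside 49.7% of all genes, and 13 of 20 at least 2-fold, beside 3.81% of all genes (and 2.45% higher). In line 53371 the median was -0.97, 1.96-fold lower, with 18 of 20 lower, beside 52.9% of all genes. There 9 of 20 were at least 2-fold lower, beside 2.98% of all genes (and 4.36% higher). The 7 genes Ddit3, Trib3, Chac1, Cth, Aldh1l2, Nupr1 and Pck2 were 2-fold lower in both lines, 35% of the arm, beside 0.801% of all genes. This pair of lines was singled out because the arm's own median was lowest there. The arm's shares in these lines are therefore a description and no test.

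The other 4 lines had medians nearer to 0, of either sign. In line 52419 the arm's median was 0.44, with 16 of 20 genes higher, beside 51.6% of all genes. There Atf3 was 2.02-fold higher, the 1 gene past 2-fold upward (0.487% of all genes), and Vldlr the 1 gene past it downward (2.43% of all genes). In line 52205 the median was 0.14 with 14 of 20 genes higher, beside 50.5% of all genes, and Aldh1l2 was an exception at -0.91. In lines 53105 and 53369 the medians were -0.23 and -0.21, with 15 and 17 of 20 genes lower, beside 50.9% and 48.5% of all genes. In these 3 lines 0 of 20 genes were past 2-fold, where 4.09%, 0.903% and 0.864% of all genes were lower and 0.573%, 1.55% and 0.699% higher in lines 52205, 53105 and 53369.

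Line 52424 held the lowest change of 15 of the 20 ATF4 genes (75%, beside 19.3% of all genes), and line 52419 held the highest change of 15 (75%, beside 12.4%). The SD of the log2 change over the 6 lines had a median of 0.69 over the ATF4 genes, 0.25 over the ER genes and 0.29 over all genes. In the ER arm the line medians were 0.16, 0.22, 0.093, -0.10, -0.095 and -0.022 in lines 52205, 52419, 52424, 53105, 53369 and 53371. Within this narrow range 13 of 15 genes were higher in line 52205, beside 50.5% of all genes. In line 53105, 12 of 15 were lower, beside 50.9% of all genes.

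The level of each arm was also read in Cre and parental cells apart. Relative to each gene's mean over the 12 libraries, the ATF4 arm in Cre cells was lowest in line 53105 (median log2 -0.63), then 52424 (-0.52), 53371 (-0.36), 52419 (-0.23), 53369 (0.26) and 52205 (0.78). In parental cells it was lowest in line 52419 (-0.68), then 53105 (-0.55), 53369 (0.42), 52205 (0.54), 53371 (0.64) and 52424 (0.76). Lines 52424 and 53371 thus held the highest parental levels and middling to low Cre levels, and the spread between lines was about the same in Cre (1.41) and parental cells (1.44). Since the 2 values of a line share its parental library, a low change and a high parental level are not separate measurements. The ER arm spanned 0.48 between lines in Cre cells and 0.45 in parental cells.

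**Figure D4:**
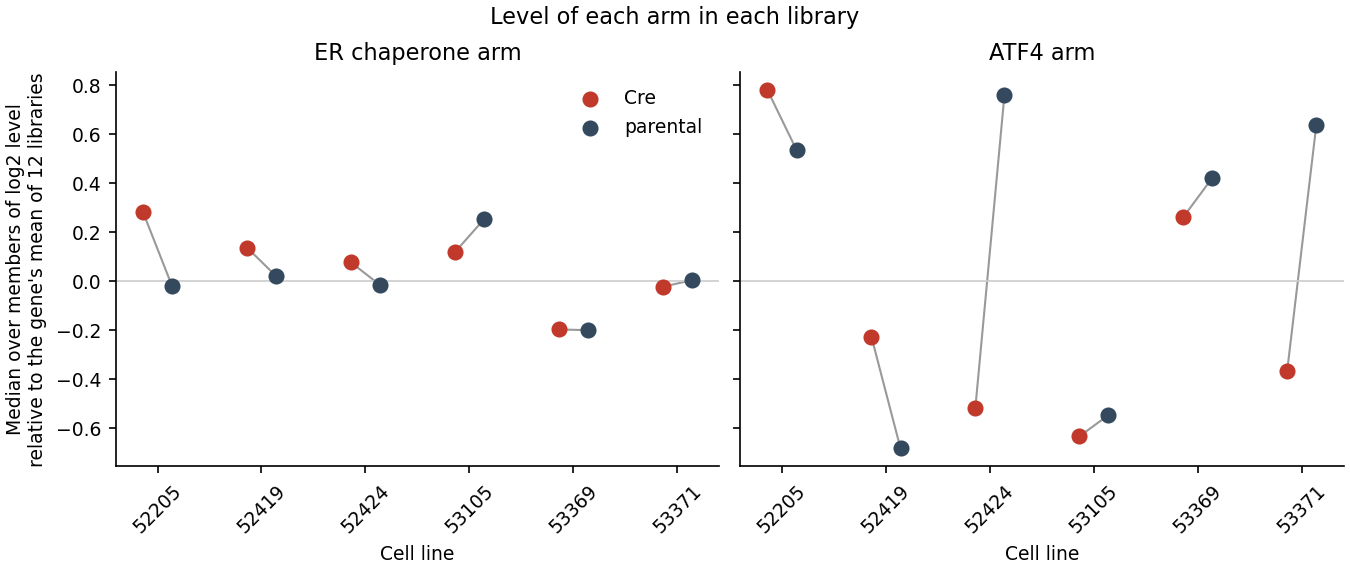
Median log2 level of each arm relative to each gene's mean over the 12 libraries, in Cre and parental cells of each line. The ATF4 arm spans 1.41 in Cre cells and 1.44 in parental cells, and the ER arm 0.48 and 0.45.

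Differences between lines were tested with an F test of the 5 line terms in the same limma fit. After Benjamini-Hochberg adjustment 17 of 20 ATF4 genes (85%) and 9 of 15 ER genes (60%) differed between lines, beside 71.1% of all genes. The shares lie on either side of the background, and the difference between them was not tested. In the ER arm Sdf2l1 had the lowest limma F adjusted p (0.000248), at 17.8 CPM in Cre and 19.7 CPM in parental cells of line 53369 and at 49.4 CPM in Cre and 50.4 CPM in parental cells of line 53105. Calr did not pass (adjusted p = 0.719). In the ATF4 arm Atf3 had the lowest F adjusted p (0.00142), and Ddit3 (0.51), Trib3 (0.0551) and Pck2 (0.0522) did not pass. The F test sets lines against the spread left within lines, which holds any Cre change that differs by line. Trib3, for example, was 5.26-fold lower in Cre cells of line 52424 and 1.65-fold higher in line 52419. A gene that did not pass is therefore not shown to be alike between lines.

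Other genes of these pathways were read from lists by role. Genes of 1 list are not replicates of a condition. At an unadjusted p under 0.05 in limma, 8.18% of all genes were lower and 6.96% higher. Of 14 sensors and translation-control genes limma called 0, with 1 lower and 1 higher at an unadjusted p under 0.05. Atf6b, a relative of ATF6, was at 57.1, 67.8 and 80.8 CPM (lowest, median, highest) in Cre cells and at 46.3, 51.4 and 69.3 CPM in parental cells. Ern1, which encodes IRE1α, was at 70.1, 96.9 and 115 CPM in Cre cells and at 88.0, 110 and 135 CPM in parental cells. Both pairs of groups overlapped, but Atf6b was higher and Ern1 lower in Cre cells in 6 of 6 pairs. Their log2 changes were 0.33 (SE 0.10, limma adjusted p = 0.238) and -0.23 (SE 0.07, adjusted p = 0.240).

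Of 23 tested partners and further targets of ATF4, 22 had estimates below 0, beside 6377 of all 12734 genes tested. Their median log2 change was -0.32. The 1 that limma called was the C/EBP factor Cebpd, which is also induced by JAK and STAT signalling. It was at 5.56, 15.05 and 17.8 CPM (lowest, median, highest) in Cre cells and at 25.2, 36.9 and 47.9 CPM in parental cells, a log2 change of -1.48 (limma adjusted p = 0.0273). The groups did not overlap. Pycr1, an enzyme of proline synthesis, was at -0.91 (SE 0.24, limma adjusted p = 0.203), lower in 6 of 6 pairs and called lower by DESeq2 (adjusted p = 0.0133). At an unadjusted p under 0.05 in limma, 12 of the 23 were lower and 0 higher, beside 8.18% and 6.96% of all genes. The medians were -0.70 in line 52424 and -0.80 in line 53371, and lay between -0.22 and 0.036 in the other 4.

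The 20 aminoacyl-tRNA synthetases, which load tRNAs and include many ATF4 targets, had a median log2 change of -0.091 and 0 calls by limma, with Cars lower (-0.39) and Hars higher (0.17) at an unadjusted p under 0.05. Their line medians ran from -0.54 in line 52424 to 0.29 in line 52419. Limma called 0 of 20 other ER folding enzymes. At an unadjusted p under 0.05, 2 of them were lower and 1 higher, beside 8.18% and 6.96% of all genes. Ero1a, the oxidase that recharges disulfide isomerases and is also induced by low oxygen, was at 60.8, 107 and 163 CPM (lowest, median, highest) in Cre cells and at 90.1, 172 and 292 CPM in parental cells. The groups overlapped, yet Cre cells were lower in 6 of 6 pairs, with a log2 change of -0.75 (SE 0.15, limma adjusted p = 0.14) and an adjusted p of 0.00141 by DESeq2. Of 15 tested genes of ER-associated degradation, 0 were past an unadjusted p under 0.05 in limma, and the median was 0.019. The 2 of lowest p were Nploc4, a cofactor that helps pull protein from the ER, at 0.16 and the conjugating enzyme Ube2j1 at 0.14. Dnajc1, a J-domain protein of the ER membrane, was the other folding gene of low p, at -0.27 (SE 0.09, limma adjusted p = 0.275) and lower in 6 of 6 pairs.

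Lists for low oxygen and proliferation were read beside the arms. Medians of the 21 genes for hypoxia and glycolysis were -0.71 in line 52424, -0.28 in line 53371 and between -0.35 and 0.12 in the other 4 lines. P4ha2, a collagen prolyl hydroxylase, was at -0.46 over all lines (SE 0.12, limma adjusted p = 0.204) and was called lower by DESeq2 (adjusted p = 0.0482). At an unadjusted p under 0.05 in limma, 9 of the 21 genes were lower, Ero1a among them, beside 8.18% of all genes. The 26 E2F and mitosis genes had a median of 2.22 in line 53371 and 0.66 in line 52424, and between -0.053 and 0.42 in the others. Mcm2 and Mcm5, subunits of the helicase that opens DNA for replication, were at 0.60 (SE 0.18, limma adjusted p = 0.236) and 0.75 (SE 0.24, adjusted p = 0.257), and at an unadjusted p under 0.05 the list had 18 higher and 0 lower genes. The 2 lines with the lowest ATF4 medians also had the highest medians of the E2F list, and the part of growth state or oxygen in the ATF4 values was not tested.

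**Figure D5:**
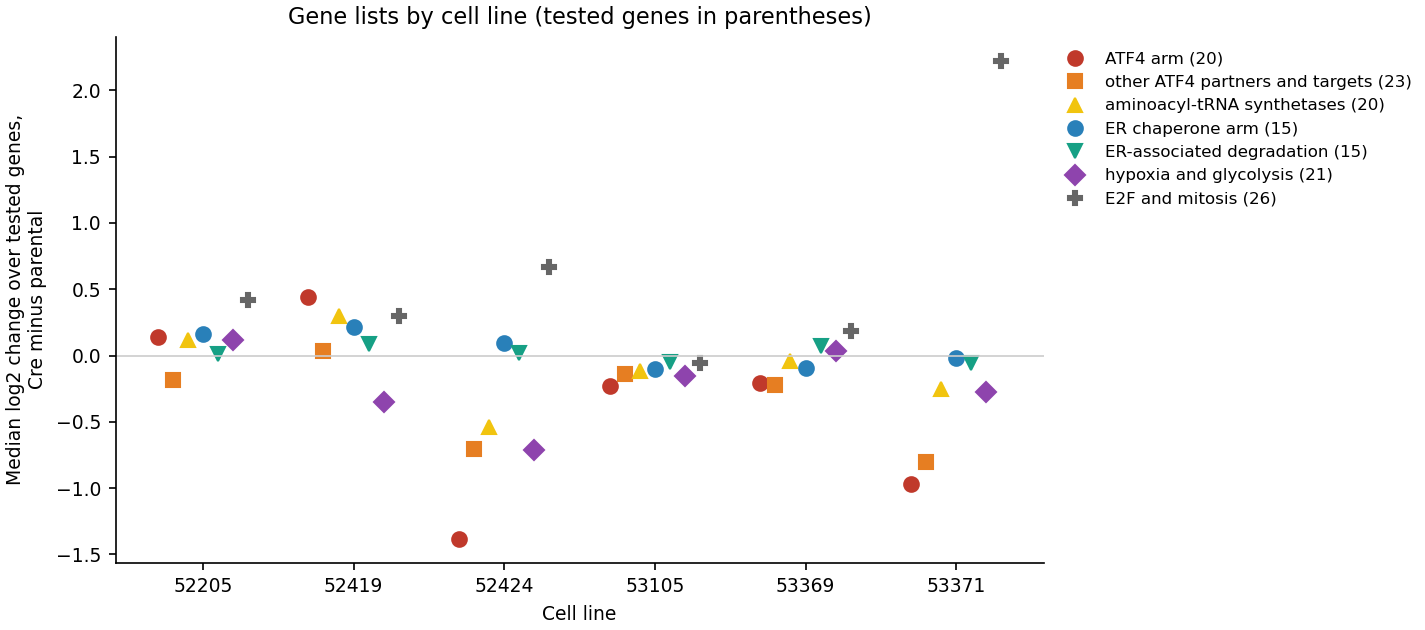
Median log2 change, Cre minus parental, of 7 gene lists in each line, with 1 marker for each list. In line 53371 the ATF4 arm stands at -0.97 and the E2F list at 2.22, and in line 52424 the ATF4 arm stands at -1.38 and the hypoxia list at -0.71.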

How the data were processed

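RNA of 12 libraries was analysed, 6 from Cre and 6 from parental cells. The deposited linear table gives a signal per gene, which is a read count over a TMM-scaled library size (CPM), made by the authors with featureCounts and edgeR per the submitters' processing notes, which also name FastQC 0.11.9, GRCm38 and mm10. The aligner is not given in the sources used here. Per step of 1 read, 100% of values were whole within 0.01, and TMM factors recomputed from these reads matched those of the table within 6.21e-09. A second table deposited by the authors holds log2 values of 10903 genes. Entrez numbers were named from RefSeq (19448) and GENCODE (11), and 973 stayed unnamed.

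Genes at 1 CPM or more in at least 6 libraries were fitted as log2(value + 0.5) with limma-trend 3.58.1 (R 4.3.3), with line as a block and Cre as the tested term. p-values were adjusted by Benjamini-Hochberg over all genes tested and called under 0.05. The log2(value + 0.5) scale understates changes of low genes. The pairs come from the series design: each Cre culture derives from its parental line, and deviations from the group mean correlated at 0.732 to 0.946 within lines, with 12 of 12 libraries best with their own line. Each culture was sequenced once, so p-values rest on the spread of the change over lines. edgeR 4.0.16 and DESeq2 1.42.0 were run on the recovered reads. The fit was tested on simulated data. Alternatives were other pseudocounts, filters, scalings, library weights, the log2 table, no block and each pair left out.

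The members and lists were chosen with earlier results of these data known. Genes given with full values were, by rule, Atf4, Ddit3, Xbp1, Hspa5 and the 6 members of each arm with the lowest p, and the 2 lowest by p of each other list. Asns, Cth and other genes named besides were chosen after their values were seen. Figures were drawn with matplotlib 3.10.9.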

Additional observations from a re-analysis of the deposited data

Results flagged for a closer look

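Of 107 sets of 6 values, 6 held a value far from the rest (5.61%), and chance flags about 1 in 20. The sets were log2 levels in Cre cells, log2 levels in parental cells and log2 changes of the 35 genes, with another for each arm. The log2(CPM + 0.5) level of Slc7a5 in Cre cells of line 53369 was 8.94, with the next Cre library at 7.89. Parental cells of that line were also at 8.94. Among parental cells, Hspa5 in line 53369 was low at 9.93 (next 10.29), Pdia6 in line 53369 at 8.45 (next 8.67), Ddit3 in line 52419 at 4.67 (next 5.70) and Mthfd2 in line 53105 at 5.87 (next 7.05). Cre cells of the same line were also the lowest of their group for Hspa5 (9.84), Pdia6 (8.52) and Mthfd2 (5.51), but not for Ddit3 (5.19). The log2 change of Dnajb9, Cre minus parental, was -0.80 in line 53371, with the next at -0.096.

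The median log2 change of the ATF4 arm pointed in different directions between lines, at 0.14 in line 52205, 0.44 in 52419, -1.38 in 52424, -0.23 in 53105, -0.21 in 53369 and -0.97 in 53371. With 1 pair for each line this difference was not tested.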

How the results depend on the processing

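The count of called genes among the 35 was 0 in limma under each alternative and in edgeR, and 1 with DESeq2, which called Aldh1l2 (log2 change -0.95). The cause was not tested. Without the block for the pairing by line the count was also 0. The medians, -0.40 for the ATF4 arm and 0.0042 for the ER arm, could not move there. With 1 Cre and 1 parental library in each line, the block leaves every estimate of the change as it was. Over the pairs left out in turn, the change of Hspa5 lay between -0.064 and 0.024. The ATF4 median ranged from -0.50 to -0.19 over the pairs left out and was -0.27 with library weights. Those weights also put Atf4 at -0.19, Ddit3 at -0.28, Trib3 at -0.48 and Hyou1 at -0.042. The ER median ranged from -0.025 to 0.051. Between 18 and 30 of the 35 genes differed between lines over the pairs left out, against 26 with all pairs. The shares of all genes in these refits are not given here. For the 15 genes given by rule, direction and side of the threshold were kept in 250 comparisons, while Hspa5 turned its sign in 4 and Aldh1l2 passed in 1. Some of the 250 were fixed beforehand, since leaving out the block or changing the filter cannot move an estimate. Because 0 members were called in the main fit, keeping the side of the threshold meant staying uncalled. Another scaling moved the median of all genes to -0.0032 at most.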

Other observations

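Cytosolic heat-shock genes, which serve protein folding outside the ER, had estimates above 0 in 12 of 13 tested genes, beside 6357 of all 12734 genes tested. Their median log2 change, Cre minus parental, was 0.13. Limma called 0 of the heat-shock genes, and 2 were higher at an unadjusted p under 0.05, beside 6.96% of all genes. Hspb1, a small heat-shock protein, was at 13.8, 29.2 and 71.8 CPM (lowest, median, highest) in Cre cells and at 9.03, 21.0 and 36.9 CPM in parental cells. The cytosolic chaperone gene Hsp90aa1 was at 244, 573 and 719 CPM in Cre cells and at 224, 472 and 549 CPM in parental cells. The groups overlapped for both genes, each higher in Cre cells in 5 of 6 pairs. The log2 changes were 0.65 (SE 0.18, limma adjusted p = 0.216) for Hspb1 and 0.35 (SE 0.10, adjusted p = 0.229) for Hsp90aa1. DESeq2 called Hspb1 (adjusted p = 0.0467).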
